A study of Mus musculus with 6 samples.

Results

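The data describe 9 long non-coding RNAs in mouse liver after acute ethanol exposure. They are the nuclear RNAs Neat1, Malat1 and Kcnq1ot1 and the small nucleolar RNA (snoRNA) host genes Gas5, Snhg1, Snhg8, Snhg12, Snhg15 and Zfas1. Members were chosen by gene symbol, and each of the 9 symbols matched 1 of the 28880 genes of the deposited table. All mice were male, wild-type C57BL/6J animals of 6 to 8 weeks. The 3 ethanol-exposed mice were fasted for 12 h, given 1 oral gavage of 50% ethanol at 6 g/kg and sampled 24 h later. The 3 control mice received no ethanol, and whether they were fasted is not given in the sources used here, so fasting and ethanol cannot be told apart. All 6 libraries carry the same batch label. Each is labelled as liver of a replicate animal, and in such bulk tissue fewer cells of a type and less RNA per cell cannot be told apart.

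Neat1 is the RNA scaffold of paraspeckles, nuclear bodies that hold back proteins and edited transcripts. Its gene gives a short, polyadenylated transcript and a long one that builds the body, and the deposited table counts both together. Malat1 lies next to Neat1 on the chromosome, concentrates in nuclear speckles, where splicing factors gather, and ends in a triple helix rather than a poly(A) tail. Kcnq1ot1 is transcribed from the paternal chromosome, antisense to Kcnq1, and silences neighbouring genes of an imprinted domain. The snoRNA hosts are spliced RNAs whose introns release the snoRNAs that guide chemical modification of ribosomal RNA. The remaining exons of such hosts often leave the nucleus and are removed by nonsense-mediated decay once ribosomes reach them, and many hosts start with a run of C and T, as ribosomal protein genes do. Whether the libraries were selected for poly(A) tails is not given in the sources used here, and this bears on Malat1 and on the long Neat1 transcript.

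The 9 genes differ in build. In GENCODE vM21, the longest transcripts of Neat1 (20771 bases), Malat1 (6983 bases) and Kcnq1ot1 (93092 bases) each have 1 exon. Neat1 lies on chromosome 19 at 5874736 to 5895898 on the minus strand in the deposited coordinates, and Malat1 at 5845717 to 5852706 on the same strand. Kcnq1ot1 spans 142731562 to 142850286 of chromosome 7 and overlaps Kcnq1 on the opposite strand along its whole length. The hosts are short, with spans from 860 bases for Snhg8 to 4125 bases for Gas5. The deposited table places 28 snoRNA genes inside the 6 hosts, 10 of them in Gas5, 8 in Snhg1, 5 in Snhg12, 3 in Zfas1 and 1 each in Snhg8 and Snhg15. Their own counts were 0 to 2 in every library, so the data describe the host RNAs and not the snoRNAs.

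The start sites of the hosts are shown because the run of C and T at the start is a feature the selection by name did not use. Each line gives 20 bases before and 20 bases from the RefSeq start (GRCm38.p6), 5′ to 3′ on the gene's strand, with the longest run of C and T in capitals. Where runs tied for the longest, as in Zfas1 and at the upstream start of Gas5, a single run is marked. RefSeq holds 2 starts for Gas5.
Gas5, chr1:161034581-161034620, plus strand: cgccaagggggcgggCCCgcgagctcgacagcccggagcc
Gas5, chr1:161035146-161035185, plus strand: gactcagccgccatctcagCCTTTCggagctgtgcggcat
Zfas1, chr2:167062914-167062953, plus strand: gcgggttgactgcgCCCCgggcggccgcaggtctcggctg
Snhg8, chr3:123508317-123508356, minus strand: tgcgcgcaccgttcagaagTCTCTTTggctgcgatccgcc
Snhg12, chr4:132308658-132308697, plus strand: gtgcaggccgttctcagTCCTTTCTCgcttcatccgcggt
Snhg15, chr11:6528741-6528780, minus strand: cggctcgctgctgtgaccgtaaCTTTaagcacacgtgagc
Snhg1, chr19:8723467-8723506, plus strand: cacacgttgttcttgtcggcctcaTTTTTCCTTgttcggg
The run was 9 bases in Snhg1 and Snhg12, 7 in Snhg8, 6 at the downstream and 3 at the upstream start of Gas5 and 4 in Zfas1 and Snhg15, against a median of 5 over 32851 RefSeq promoters. Of all promoters, 16.0% held a run of 8 or more in this window. The run covers the first base of the RNA in Snhg8, Snhg12 and the downstream start of Gas5.

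Snhg15, the host with the smallest adjusted p, also held 2 palindromic motifs in the 300 bases around its start. It is printed 5′ to 3′ with the motifs CACGTG and TGACGTCA in capitals.
Snhg15, chr11:6528711-6529010, minus strand, GRCm38.p6: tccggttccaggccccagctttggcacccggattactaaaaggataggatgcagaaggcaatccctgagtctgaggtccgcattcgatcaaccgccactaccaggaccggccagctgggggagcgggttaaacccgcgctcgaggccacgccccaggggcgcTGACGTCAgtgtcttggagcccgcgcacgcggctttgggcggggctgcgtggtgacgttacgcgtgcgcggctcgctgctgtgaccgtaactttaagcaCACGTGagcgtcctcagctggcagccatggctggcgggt
CACGTG, the E-box letters, occurred in 1 of the 9 member promoters and in 7.15% of all 32851. TGACGTCA, the cyclic AMP response element letters, occurred in Snhg15 and at the downstream start of Gas5, and in 1.79% of all promoters. GAANNTTC, a pair of heat shock element units, occurred in 0 of the 9 and in 7.86% of all. All 3 motifs read the same on both strands and do not overlap each other. A match describes letters in this window and not a bound factor. Neat1 has no entry in the promoter table used here.

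The deposited counts on genes summed to between 60514417 and 74210869 per library. Changes are given as log2 fold changes of counts scaled by edgeR's TMM factors (0.768 to 0.836 for the ethanol group and 1.26 to 1.27 for the controls), and levels as CPM, the share of the TMM-scaled library. The p-values measure the spread between these mice. This scaling matters for every RNA described here. Over all 16717 genes tested, the middle log2 fold change was -0.04 with it and -0.71 with library size alone. FPKM values, read counts scaled by the authors to transcript length and library size, rest on the latter scale, whereas TMM takes most genes as unchanged. DEGs, which had to pass 0.05 in adjusted p and differ by more than 1 on the log2 scale, numbered 1738 higher and 2301 lower, or 846 and 5385 with library size alone, 408 and 1713 with limma on log2(FPKM + 1), and 1908 and 1926 after a correction for transcript length. Ethanol replicate 3 stood apart from ethanol replicates 1 and 2 for several of the RNAs below, and values without it are given there.

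Of the 9 RNAs, 3 were DEGs (33.3%), against 24.2% of all genes tested. Neat1 fell (13.8% of all genes were lower DEGs), and Malat1 and Snhg15 rose (10.4% were higher DEGs). At an adjusted p under 0.05 without a limit on the fold change, 7 of the 9 passed, against 43.0% of all genes, and these were Neat1, which was lower, and Malat1, Gas5, Snhg1, Snhg8, Snhg15 and Zfas1, which were higher. The groups did not overlap in CPM for the same 7 RNAs, where 59.0% of all genes showed no overlap. Snhg12 and Kcnq1ot1 did not pass.

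**Figure D1:**
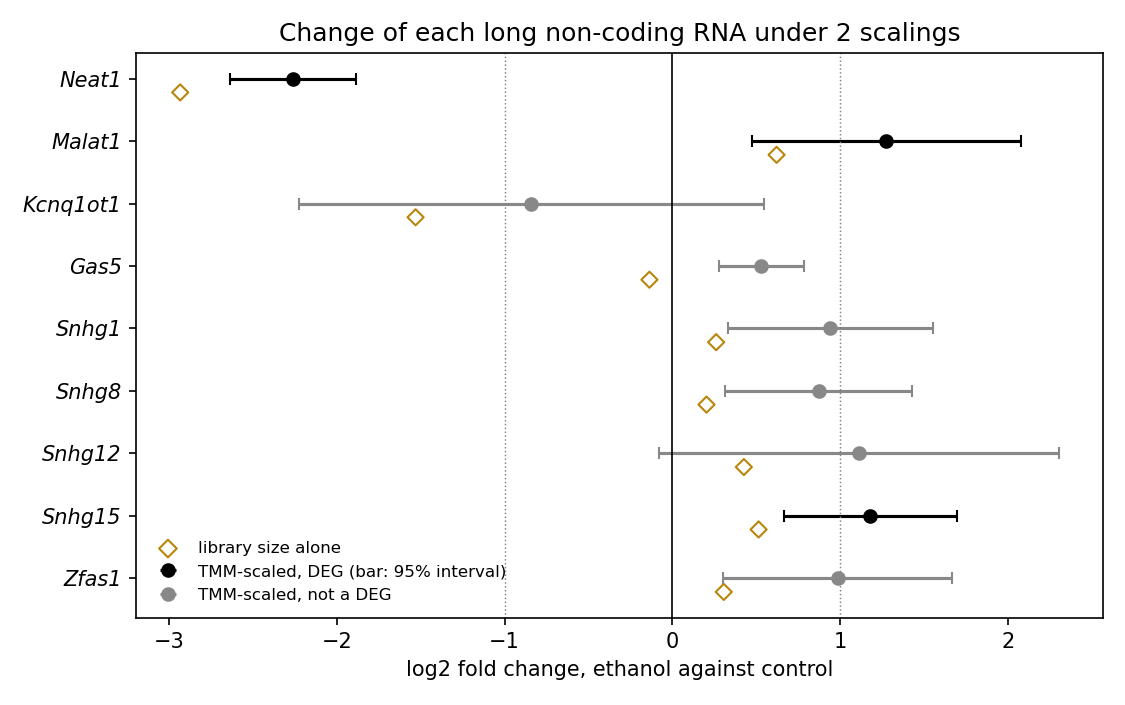
Log2 fold change of each RNA, ethanol against control, from edgeR's quasi-likelihood fit of TMM-scaled counts (circles, with 95% intervals, black for DEGs) and with library size alone (open diamonds), with dotted lines at the threshold of 1. Neat1 is left of 0 on both scales, and each diamond lies to the left of its circle, which carries Gas5 across 0.

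Neat1 showed the widest separation of the 9. It was at 86.9, 77.1 and 79.0 CPM in ethanol replicates 1 to 3 and at 459.6, 315 and 392.1 CPM in control replicates 1 to 3. The 3 ethanol-exposed mice lay close together, and even the lowest control mouse was far above them. The log2 fold change was -2.26 (standard error 0.16, 95% interval -2.64 to -1.89, adjusted p = 0.000159, edgeR's quasi-likelihood test), a level 4.80-fold lower in ethanol-exposed mice. In FPKM, Neat1 averaged 2.83 ± 0.150 in ethanol-exposed mice and 21.7 ± 4.08 in control mice (SD, n = 3 per group), a ratio of 7.65 between the group means. Neat1 remained a lower DEG in all 20 other settings tried, with log2 fold changes from -2.93 to -2.05. Frmd8os, which overlaps its start on the opposite strand, had 8 to 58 counts (ethanol) and 47 to 79 counts (control) beside 4313 to 43134 counts of Neat1.

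Malat1 moved the other way. It was at 199, 220.0 and 79.9 CPM in ethanol replicates 1 to 3 and at 66.6, 69.4 and 70.5 CPM in control replicates 1 to 3. Ethanol replicates 1 and 2 were well above the control mice, whereas ethanol replicate 3 was only just above the highest of them. The log2 fold change was 1.27 (standard error 0.34, 95% interval 0.47 to 2.08, adjusted p = 0.0213, edgeR's quasi-likelihood test). Without ethanol replicate 3 it was 1.62 (adjusted p = 8.06e-06), and without any one of the other libraries it was 1.02 to 1.29 and no longer passed (adjusted p of 0.0653 to 0.0779). In FPKM the groups overlapped, since ethanol replicate 3 (8.19) lay below the control mice (11.3 to 11.9) and ethanol replicates 1 and 2 (20.7 and 24.6) above them. With library size alone the change was 0.62 (adjusted p = 0.175). Relative to the median of all genes it was 1.32 with TMM and 1.33 with library size, which are near each other by construction because scaling shifts all genes alike.

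**Figure D2:**
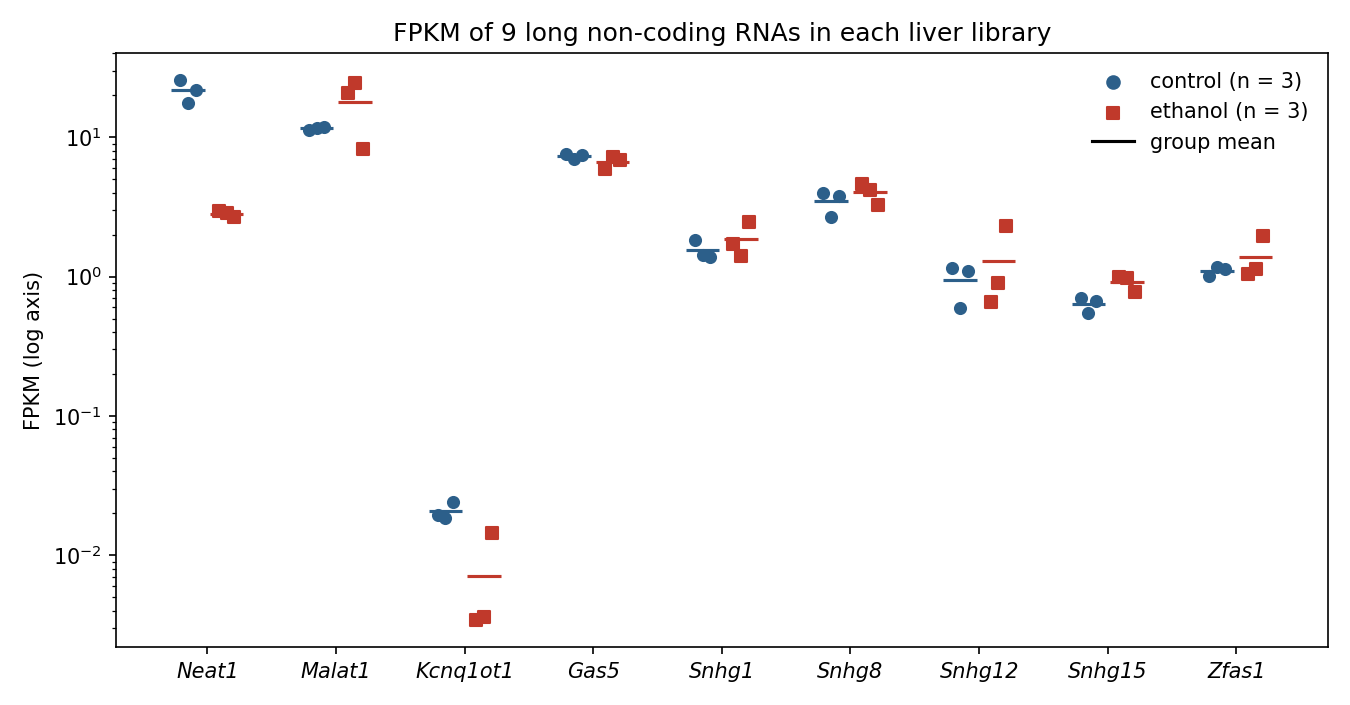
FPKM of the 9 RNAs in each library (log axis), with control mice as circles, ethanol-exposed mice as squares (replicates 1 to 3 from left to right) and group means as lines. The Neat1 groups are far apart, and ethanol replicate 3 departs from the other ethanol-exposed mice for Malat1, Kcnq1ot1, Snhg12 and Zfas1.

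The ratio of Neat1 to Malat1 within a library does not depend on scaling. It was 0.144, 0.116 and 0.327 in ethanol replicates 1 to 3 and 2.28, 1.50 and 1.84 in control replicates 1 to 3. Neat1 exceeded Malat1 per unit of length in every control mouse, and Malat1 exceeded Neat1 in every ethanol-exposed mouse. The ratio of the group means was 9.58. The order of levels changed accordingly. In control mice the FPKM order was Neat1 (21.7), Malat1 (11.6), Gas5 (7.32), Snhg8 (3.48), Snhg1 (1.55), Zfas1 (1.10), Snhg12 (0.946), Snhg15 (0.636) and Kcnq1ot1 (0.0207). In ethanol-exposed mice it was Malat1 (17.8), Gas5 (6.64), Snhg8 (4.01), Neat1 (2.83), Snhg1 (1.85), Zfas1 (1.38), Snhg12 (1.29), Snhg15 (0.918) and Kcnq1ot1 (0.00714). The ranges of neighbours overlapped between Zfas1, Snhg12 and Snhg15 in both groups, and between Snhg1 and Zfas1 in ethanol-exposed mice. These levels carry a limit for the hosts, because the length behind an FPKM value, relative to that of Malat1, was 0.587 for Gas5, near the ratio of the gene spans (0.590), which include introns. The same held for Snhg1, Snhg8, Snhg12 and Zfas1, whereas Snhg15 had a length of 0.437 against a span of 0.507.

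Kcnq1ot1, the longest of the 9 RNAs, had the lowest FPKM of them in both groups. It had 26, 27 and 103 counts in ethanol replicates 1 to 3 and 145, 113 and 160 in control replicates 1 to 3, or 0.452, 0.441 and 1.89 CPM against 1.54, 1.48 and 1.94 CPM. Ethanol replicates 1 and 2 were low, and ethanol replicate 3 lay within the range of the control mice. In FPKM, ethanol replicate 3 (0.0144) was below the lowest control mouse (0.0185), so the groups did not overlap on that scale. The log2 fold change was -0.84 (standard error 0.59, 95% interval -2.23 to 0.54, adjusted p = 0.284, edgeR's quasi-likelihood test). Without ethanol replicate 3 it was -1.88 (adjusted p = 0.00228), a DEG. Over its 18 settings the adjusted p ran from 0.00228 to 0.531 on its own counts, and it was 0.821 when Kcnq1 was added.

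The protein-coding Kcnq1, which shares the locus, had 121, 117 and 29 counts in ethanol replicates 1 to 3 and 110, 51 and 71 in control replicates 1 to 3. Within the ethanol group it was low where Kcnq1ot1 was high, whereas among the control mice replicate 2 had the lowest count of both genes. The Kcnq1 groups overlapped, with a log2 fold change of 0.75 (edgeR's quasi-likelihood test, adjusted p = 0.285). Kcnq1ot1 held 17.7%, 18.8% and 78.0% of the counts of both genes in the ethanol-exposed mice and 56.9%, 68.9% and 69.3% in the control mice. Together they had 147, 144 and 132 counts against 255, 164 and 231, and the sum changed by a log2 fold change of -0.07 (adjusted p = 0.821). Whether counting used strand is not given, so the division of reads between them is uncertain. Of 16 genes listed for the imprinted domain, 10 were tested. At an adjusted p under 0.05 alone, 1 was higher and 1 lower, against 21.5% of all genes in each direction. By edgeR 0 were DEGs, against 24.2% of all genes. DESeq2 also called 0, whereas limma on log2(FPKM + 1) called 1 lower, where 1713 of all 16007 genes were lower. Library size alone called 3 lower (5385 of all 16717 genes), and the fit without ethanol replicate 3 called 1 higher (1920 of all 17622 genes). Cd81 was at 158 ± 13.2 CPM in ethanol-exposed and 115 ± 13.6 CPM in control mice, and Dhcr7, an enzyme of cholesterol synthesis, at 64.1 ± 10.3 and 101 ± 5.67 CPM (SD, n = 3 per group).

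**Figure D3:**
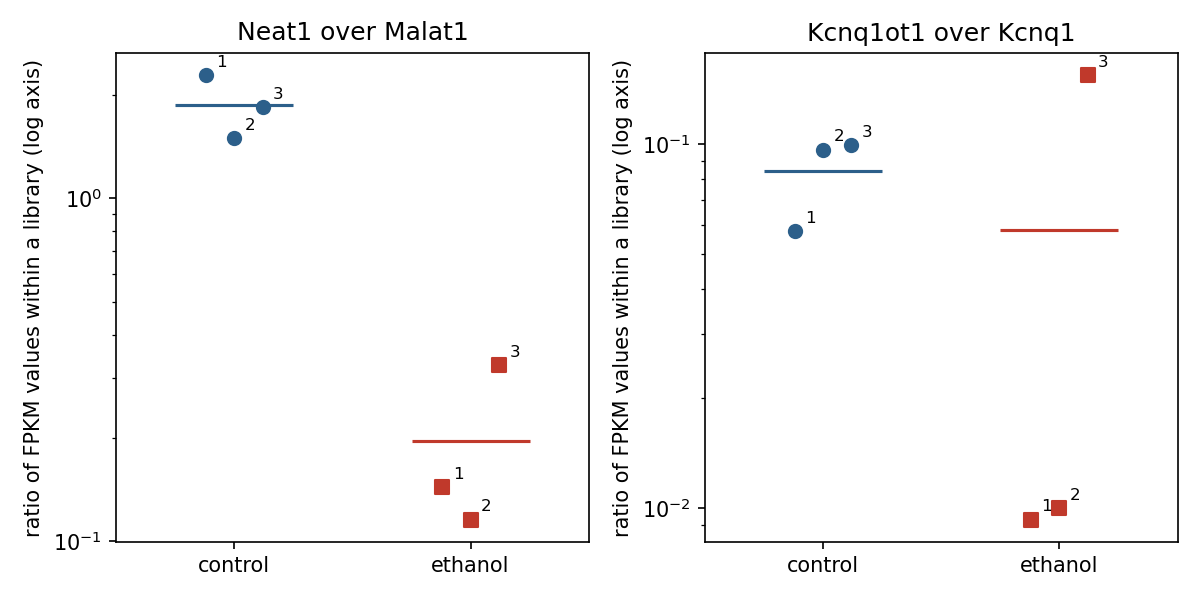
Ratio of FPKM values within each library (log axis), Neat1 over Malat1 on the left and Kcnq1ot1 over Kcnq1 on the right, with replicate numbers beside the points and group means as lines. The Neat1 ratios do not overlap between groups, and the Kcnq1ot1 ratio of ethanol replicate 3 (0.154) lies above all control mice.

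All 6 snoRNA hosts had positive log2 fold changes on TMM-scaled counts, and 5 of the 6 passed at an adjusted p under 0.05 (21.5% of all genes were higher by this rule). Only Snhg15 was also beyond a log2 fold change of 1. In FPKM, where no such scaling is made, the groups overlapped for all hosts but Snhg15. With library size alone, 0 of the 6 passed in edgeR, and the change of Gas5 became negative. Relative to the median of all genes tested, Gas5 stood at 0.57 with both scalings, Snhg15 at 1.22 with both, and Snhg1 at 0.98 and 0.97. Such values are nearly equal by construction, since a change of scaling shifts all genes by about the same amount. They do not test which scaling is right.

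Snhg15, which hosts Snora9, was at 4.15, 3.84 and 3.32 CPM in ethanol replicates 1 to 3 and at 1.82, 1.44 and 1.72 CPM in control replicates 1 to 3. The groups did not overlap in CPM or in FPKM. Its log2 fold change was 1.18 (standard error 0.22, 95% interval 0.67 to 1.69, adjusted p = 0.00508, edgeR's quasi-likelihood test). It stayed a DEG without any single library (1.09 to 1.28), and fell to 0.51 (adjusted p = 0.0918) with library size alone.

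Gas5, the growth arrest-specific transcript and the most abundant host, was at 33.2, 37.9 and 39.2 CPM in ethanol replicates 1 to 3 and at 26.2, 24.3 and 25.9 CPM in control replicates 1 to 3. The control mice lay close together, and all ethanol-exposed mice were above them. Its log2 fold change was 0.53 (standard error 0.11, 95% interval 0.28 to 0.78, adjusted p = 0.00716), the smallest of the hosts and the most precise. In FPKM the direction was not the same, with 6.64 ± 0.692 in ethanol-exposed mice and 7.32 ± 0.316 in control mice (SD, n = 3 per group). With library size alone the log2 fold change was -0.14 (adjusted p = 0.354). Zbtb37 overlaps its start on the opposite strand and had 342 to 973 counts in ethanol-exposed and 708 to 952 in control mice. Summed with its overlapping genes, Gas5 changed by 0.41 (adjusted p = 0.0529).

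Snhg1, which carries 8 snoRNAs, was at 7.35, 5.54 and 10.4 CPM in ethanol replicates 1 to 3 and at 4.72, 3.77 and 3.66 CPM in control replicates 1 to 3. The difference was 0.94 on the log2 scale, with a standard error of 0.26 and an adjusted p of 0.0240. It no longer passed without control replicate 2 (0.89, adjusted p = 0.0871) or control replicate 3 (0.87, adjusted p = 0.0909). Snhg1 became a DEG without ethanol replicate 2 (1.13, adjusted p = 0.0116) or control replicate 1 (1.06, adjusted p = 0.0471, edgeR's quasi-likelihood test). Its divergent neighbour Slc3a2, the heavy chain of several amino acid transporters, starts 68 bases away and also passed, at 0.77 with an adjusted p of 0.00402 (standard error 0.14, quasi-likelihood test of edgeR). Snhg8, the host of Snora24, was at 5.53, 4.59 and 3.96 CPM in ethanol replicates 1 to 3 and at 2.92, 1.99 and 2.78 CPM in control replicates 1 to 3. The difference was 0.87, with a standard error of 0.24 and an adjusted p of 0.0228. It no longer passed without ethanol replicate 1 (0.74, adjusted p = 0.0704), control replicate 2 (0.72, adjusted p = 0.0808) or control replicate 3 (0.93, adjusted p = 0.0636). For both hosts every ethanol-exposed mouse was above every control mouse. Ethanol replicate 3 was the highest of the ethanol-exposed mice for Snhg1 and the lowest for Snhg8. After the length correction, Snhg8, the shortest member, changed by 0.60 and did not pass (adjusted p = 0.0831), and Snhg1 became a DEG at 1.05.

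Zfas1 and Snhg12 were by far highest in ethanol replicate 3. Zfas1, which runs antisense to the start of Znfx1 and hosts Snord12, was at 4.31, 4.27 and 8.06 CPM in ethanol replicates 1 to 3 and at 2.57, 2.95 and 2.89 CPM in control replicates 1 to 3. Snhg12 was at 2.64, 3.37 and 9.24 CPM in ethanol replicates 1 to 3 and at 2.84, 1.52 and 2.68 CPM in control replicates 1 to 3. The other ethanol-exposed mice were above the control mice for Zfas1, and the groups overlapped for Snhg12. The log2 fold change of Zfas1 was 0.98 (adjusted p = 0.0302), or 0.62 without ethanol replicate 3 (adjusted p = 0.0238). It no longer passed without control replicate 1 (0.92, adjusted p = 0.102), control replicate 2 (1.02, adjusted p = 0.0831) or control replicate 3 (1.00, adjusted p = 0.0891). Zfas1 became a DEG without ethanol replicate 1 (1.13, adjusted p = 0.0338) or ethanol replicate 2 (1.13, adjusted p = 0.0283). The log2 fold change of Snhg12 was 1.11 (95% interval -0.08 to 2.30, adjusted p = 0.116). Without ethanol replicate 3 it was 0.37 (adjusted p = 0.352, edgeR's quasi-likelihood test throughout). Znfx1 shares 82 bases with Zfas1 and had 917 to 1359 counts in ethanol-exposed and 1899 to 2666 in control mice, so that the sum of both genes changed by -0.18.

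The spread between mice was uneven. In control mice the coefficient of variation of CPM was 2.95% for Malat1, 4.04% for Gas5 and 7.37% for Zfas1, and 11.8% to 30.7% for the others. In ethanol-exposed mice it was 6.41% for Neat1, 8.62% for Gas5 and 11.2% for Snhg15, but 45.4% for Malat1, 71.1% for Snhg12 and 89.7% for Kcnq1ot1. Relative to Malat1, every host was highest in ethanol replicate 3, with Zfas1 over Malat1 at 0.0504, 0.0459 and 0.239 in ethanol replicates 1 to 3 and at 0.0902 to 0.0994 in the control mice.

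The genes with the most similar profiles were sought among up to 4102 genes whose FPKM averaged 5 or more, by Pearson's r of log2 CPM over the 6 libraries. These correlations are given as a description. They follow the difference between the groups for Neat1 and Gas5, and also the departure of ethanol replicate 3 for Malat1 and Kcnq1ot1. For Neat1 they were Pcmtd1 (r = 0.998), Igtp (0.997) and Hnrnpu (0.997), a nuclear RNA-binding protein. Those nearest to Malat1 were Slc25a25 (0.999), Rnd3 (0.999) and Ube2b (0.998). Kcnq1ot1 was closest to Pnrc1 (0.992), Yeats4 (0.989) and Gfer (0.988), and Gas5 to Dcun1d5 (0.996), Wasl (0.993) and Hacd3 (0.993).

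Beyond these 6 hosts, 15 other non-coding snoRNA hosts were listed, of which 14 were tested. There were 6 higher DEGs (42.9%, against 10.4% of all genes) and 0 lower (13.8% of all genes). The median log2 fold change was 0.71 against -0.04 for all genes. With library size alone the median was 0.05 (-0.71 for all genes), with 4 DEGs higher and 1 lower. On that scale 846 of all 16717 genes were higher and 5385 lower. The highest were Snhg10 at 4.60 (standard error 0.84, adjusted p = 0.00489) and Snhg5 at 3.32 (standard error 0.25, adjusted p = 0.000190), and the lowest among the DEGs were Snhg6 at 1.24 and Snhg16 at 1.64 (edgeR's quasi-likelihood test). Snhg5 was at 24.9 ± 6.48 CPM in ethanol-exposed and 2.49 ± 0.421 CPM in control mice (SD, n = 3 per group). Snhg10 was at 4.02 ± 3.07 and 0.164 ± 0.0636 CPM. Snhg3 and Epb41l4aos were the remaining higher DEGs, at 2.72 and 1.72. Dancr was at -0.55 (adjusted p = 0.356) and Snhg11 at -0.24 (adjusted p = 0.366).

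Of 23 protein-coding snoRNA hosts, mostly ribosomal proteins and translation factors, 1 was a higher and 1 a lower DEG (8.7%, against 24.2% of all genes). The median log2 fold change was 0.72, or 0.05 with library size alone, where those of all genes were -0.04 and -0.71. At an adjusted p under 0.05 alone, 18 were higher and 1 lower, against 21.5% of all genes in each direction. The number of higher DEGs was 0 with library size alone, upper quartile scaling, DESeq2 and the replicate block (846, 1506, 1922 and 1518 among all genes). It was 5 after the length correction and 4 with the replicate block as well (1908 and 1697 among all genes). Without ethanol replicate 3 or control replicate 3 it was also 4 (1920 and 1492 among all genes). The higher DEG was Rpl12 at 1.01, a protein of the large ribosomal subunit, just past the threshold, and the lower one was Hspa8 at -1.03, the constitutive heat shock cognate chaperone. The 17 proteins of the snoRNA particles and their assembly had 1 higher and 1 lower DEG (11.8%, against 24.2% of all genes). Their median log2 fold change was 0.37. Among them, Nufip1, an assembly factor, rose by 1.08. Dkc1, the pseudouridine synthase of these particles, fell by 1.86, being at 2.43 ± 0.749 CPM in ethanol-exposed and 8.86 ± 0.908 CPM in control mice. Of 14 nonsense-mediated decay factors, 14.3% were DEGs. Smg1, the kinase of the pathway, rose by 2.03 and Smg5 fell by 1.07, while the median was -0.06. With library size alone the snoRNA particle proteins had 0 higher and 5 lower DEGs (median -0.30) and the decay factors 1 and 3 (median -0.73). All 16717 genes had 846 and 5385 on that scale (median -0.71). Smg1 was at 126 ± 67.7 CPM in ethanol-exposed and 30.8 ± 3.32 CPM in control mice.

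The counts for paraspeckle and nuclear speckle proteins depended on the scaling, as did those for all genes. Of 25 paraspeckle proteins, 2 were higher and 3 lower DEGs (20%, against 24.2% of all genes, median -0.18). Zc3h6 rose by 2.99 and Nudt21, a cleavage factor that binds Neat1, by 1.09, and Fam98a and Cpsf6, the partner of Nudt21, fell by 2.08 and 1.50 on the log2 scale. Of 25 nuclear speckle proteins, 2 were higher and 3 lower DEGs (also 20%, median -0.07). With library size alone, 1 paraspeckle protein was higher and 10 lower (median -0.85), and 0 speckle proteins were higher and 11 lower (median -0.73). On that scale 846 of all 16717 genes were higher and 5385 lower (median -0.71). With TMM factors from the genes averaging an FPKM of 5 or more, the counts were 1 and 5 for paraspeckle proteins. They were 0 and 6 for speckle proteins and 1226 and 3301 for all genes. Sf3b1 and U2af1, both of which help define the 3′ splice site, rose by 1.22 and 1.13, and the splicing factors Srsf6 and Srsf1 fell by 1.47 and 1.17. Of 18 other long non-coding RNAs tested, 1 was higher and 4 lower (27.8%, median -0.30), or 1 and 9 with library size alone (median -0.98). Dino, antisense to the start of Cdkn1a, rose by 2.47, and Mir17hg, the host of a microRNA cluster, fell by 1.45. Oip5os1 fell by 2.07, from 46.9 ± 5.65 to 11.2 ± 4.28 CPM, Ftx by 1.55 and Tug1, like Neat1 a largely nuclear RNA, by 1.32 (edgeR's quasi-likelihood test, SD, n = 3 per group).

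**Figure D4:**
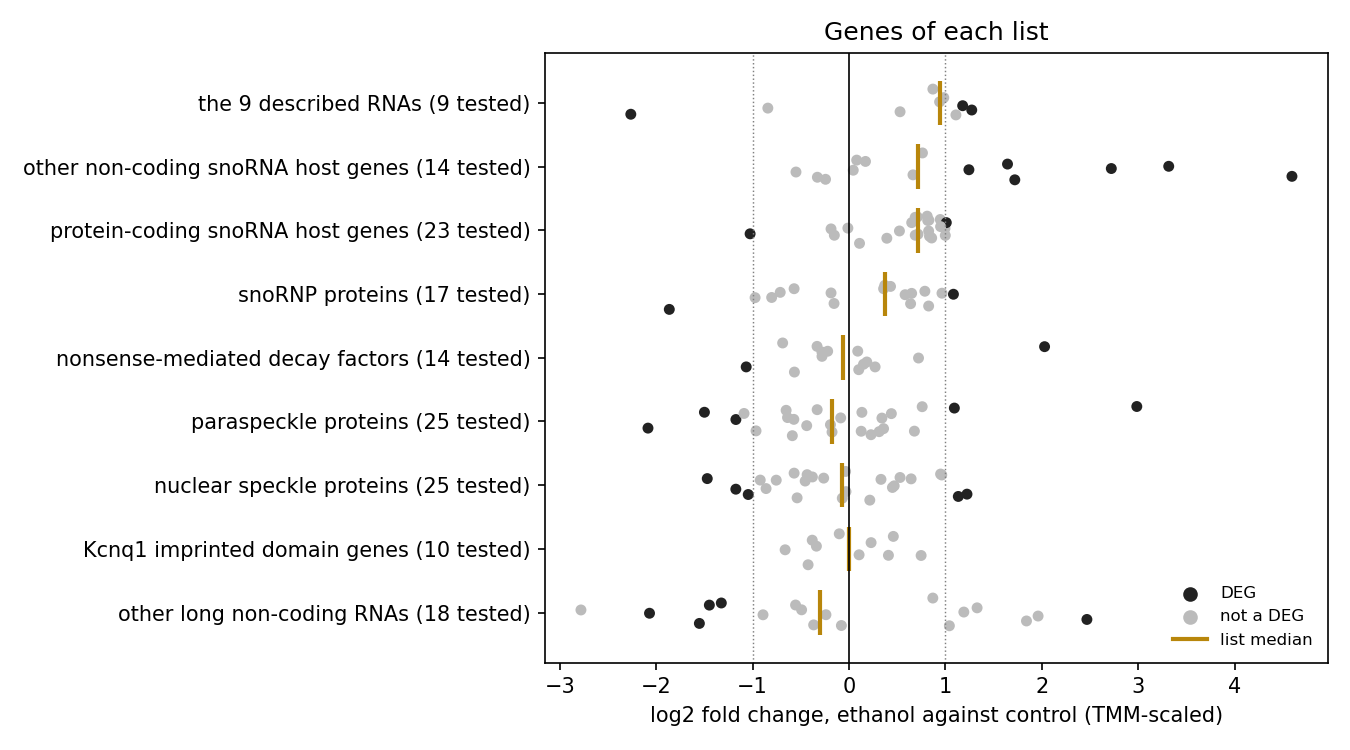
Log2 fold change (TMM-scaled) of every tested gene of each list, black for DEGs and grey for the rest, with the list median as a gold line and dotted lines at the threshold of 1. The medians of the non-coding and protein-coding host lists lie at 0.71 and 0.72, and those of the paraspeckle and speckle protein lists at -0.18 and -0.07.

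Transcript length and the summed levels of cell type markers are given beside these changes. Neat1 and Kcnq1ot1 are longer than 99.5% and 99.98% of the genes tested, judged by the length behind their FPKM values. Among all genes tested, the 4180 with the shortest transcripts had a median log2 fold change of 0.26 and the 4179 with the longest -0.18. With this trend removed, Neat1 was at -2.06 (adjusted p = 0.000159). The summed level of 8 erythroid markers ranged over 579 to 864 CPM after ethanol and over 180 to 219.8 CPM in controls, with 4 of 5 tested higher and Ahsp at 0 counts in every library. That of 10 neutrophil markers was 3.04 to 14.97 CPM, highest in ethanol replicate 3, and 1.22 to 1.93 CPM, with 4 of 5 tested higher. Hepatocyte markers summed to 136900 to 141900 and 74370 to 86710 CPM, with 2 of 10 higher and 0 lower and a median log2 fold change of 0.69. Their sums overlapped between the groups with library size alone, at 105100 to 117300 and 93550 to 109700 CPM, and the median was 0.02. Those of T cells summed to 0.785 to 1.30 and 2.53 to 3.21 CPM (1 of 5 lower) and of B cells to 2.99 to 4.88 and 4.84 to 6.82 CPM (1 of 6 lower), where the B cell sums overlapped. Markers of Kupffer cells (1 of 10 higher), endothelial cells (2 higher and 2 lower of 9), stellate cells (2 of 10 lower) and cholangiocytes (1 of 7 higher) had summed levels that overlapped between the groups with TMM scaling. With library size alone the ethanol-exposed mice were below the control mice for Kupffer cells (100.1 to 126 against 183 to 201 CPM, 0 of 10 higher and 4 lower), endothelial cells (93.6 to 164 against 174 to 193 CPM, 1 of 9 higher and 3 lower), stellate cells (118 to 149 against 181 to 236 CPM, 5 of 10 lower) and B cells (2.29 to 3.80 against 6.09 to 8.63 CPM, 2 of 6 lower). On that scale the neutrophil sums overlapped (2.37 to 11.5 against 1.54 to 2.43 CPM), and the erythroid sums did not (479.7 to 672 against 227.5 to 277 CPM). Of all 16717 genes, 846 were higher and 5385 lower with library size alone (median -0.71). The list medians on that scale were -0.88 for Kupffer cells, -0.88 for endothelial cells, -0.94 for stellate cells and -1.09 for B cells. With TMM scaling, 10.4% of all genes were higher and 13.8% lower. The part of these cell types in the changes of the 9 RNAs was not tested.

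**Figure D5:**
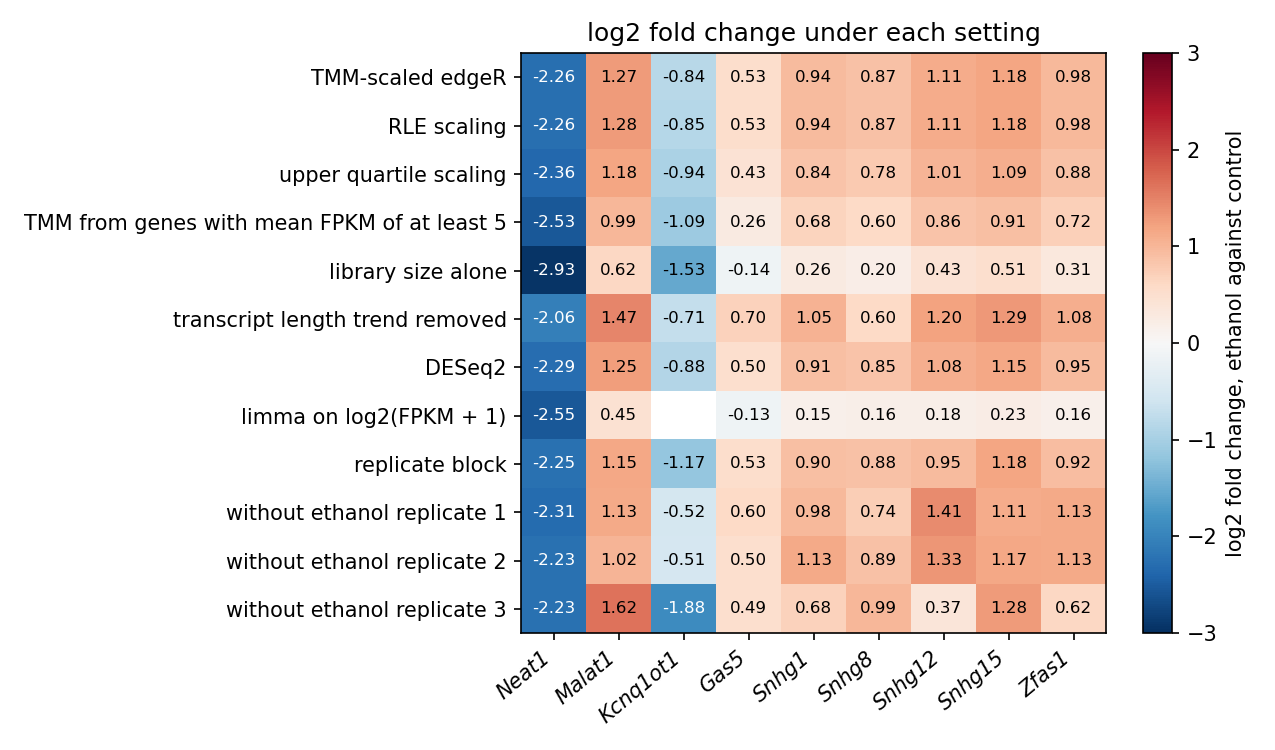
Log2 fold change of each RNA (columns) under the TMM-scaled edgeR fit and 11 other settings (rows), printed in each cell and coloured from blue (lower in ethanol) to red (higher). Neat1 is lower in every row, Gas5 is below 0 with library size alone and with limma on log2(FPKM + 1), and the blank cell is Kcnq1ot1, which limma's filter on low FPKM removed.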

How the data were processed

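Livers of 3 ethanol-exposed mice and 3 control mice were sequenced as paired-end reads. The authors deposited whole-number counts per Ensembl gene, not normalized, with an FPKM value, scaled to transcript length and mapped reads, beside each. Before alignment, reads were filtered by the authors for base quality, ambiguous bases and adaptors. The aligner, the counter and the use of strand are not given in the sources used here. The submitters' processing notes name GRCm38 and mm10, yet 1.99% of the 27049 identifiers found in GENCODE vM21 (GRCm38) had the same start and end, so positions are given as deposited, with no build. The lowest counts look rounded up: 236 genes had a count of 1 in every library beside FPKM values of 1e-06 to 0.151. The counts may therefore be derived from coverage rather than direct tallies of reads, and they were used as deposited. The table held 1 count column of no labelled library, which was not used.

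Counts were fitted over all genes kept by filterByExpr with edgeR 4.0.16 (TMM factors, quasi-likelihood test, two-sided, no covariates) in R 4.3.3, with Benjamini-Hochberg adjustment over all 16717 genes tested. A differentially expressed gene (DEG) had to pass 0.05 in adjusted p and 1 in absolute log2 fold change. Alternatives used limma 3.58.1 (genes whose FPKM averaged 0.1 or more) and DESeq2 1.42.0. On simulated counts for the comparison of ethanol with control, with log2 changes of 2, edgeR recovered 187 of 192 changed genes with 6 false calls among 16838 tested, DESeq2 177 of 200 with 14 false calls, and limma 102 of 182 with 2 false calls. The simulation changed 200 genes in either direction, gave both groups the same composition otherwise and used the common dispersion for every gene. It therefore does not bear on the choice of scaling or on smaller changes. The square root of the common dispersion was 0.299. Within a group, chi-square per degree of freedom between libraries was 53.9 to 545, so no pair was treated as 1 library. Every member is named, with the 2 highest and 2 lowest DEGs of each list and the genes that overlap a member. The members and lists were chosen with earlier results of these data known.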

Additional observations from a re-analysis of the deposited data

How the results depend on the processing

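The lower call of Neat1 was kept in every setting. The higher calls of Malat1 and Snhg15 were lost with library size alone and kept with upper quartile scaling. With 3 mice per group single libraries mattered too, since the call of Malat1 was kept only when ethanol replicate 3 was the library left out. The number of DEGs among the 9 RNAs was 3, and 1 (0 of them higher) with library size alone, with TMM factors from genes whose FPKM averaged 5 or more (chosen after seeing the data), with a filter at a mean FPKM of 5, which kept 3 of the RNAs, and with limma. It was 5 (4 higher) with the transcript length trend removed, with or without the replicate block, and 7 (6 higher) at an adjusted p alone. Of all 16717 genes, 1738 were higher and 2301 lower in the main fit, and 846 and 5385 with library size alone. They numbered 1226 and 3301 with those TMM factors, and 429 and 443 of 4328 with the filter. Limma gave 408 and 1713 of 16007 on log2(FPKM + 1), and 752 and 4965 on log2(FPKM + 0.1). Without the length trend they numbered 1908 and 1926, or 1697 and 1604 with the block as well. At an adjusted p alone they numbered 3598 and 3591. Leaving out each library gave 2 to 4 DEGs among the 9 RNAs, with 1 to 3 higher and 1 to 2 lower. Among all genes it gave 1490 to 1920 higher and 1713 to 2902 lower, of 17279 to 17622 tested. The cause was not tested.

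Malat1 was at 0.62 with library size alone, 0.99 with either restriction to a mean FPKM of 5, and 0.45 and 0.47 with limma on log2(FPKM + 1) and log2(FPKM + 0.1). In the same settings, without the filter, Snhg15 was at 0.51, 0.91, 0.23 and 0.47. Gas5 turned to -0.14 with library size alone and to -0.13 and -0.14 with limma. The sum of Zfas1 with Znfx1 and the other genes that overlap it changed by -0.18. In that sum Znfx1 had 917 to 2666 counts per library beside 225 to 440 for Zfas1, so it mostly describes Znfx1. Snhg1 and Zfas1 became DEGs at 1.05 and 1.08 without the length trend, and at 1.02 and 1.03 with the replicate block as well. At an adjusted p alone, Gas5 (0.53), Snhg1 (0.94), Snhg8 (0.87) and Zfas1 (0.98) passed. With TMM factors from the genes averaging an FPKM of 5 or more they were at 0.26, 0.68, 0.60 and 0.72 and did not pass (edgeR's quasi-likelihood test, adjusted p of 0.105, 0.0815, 0.0741 and 0.0954). Leaving out each library gave 1.02 to 1.62 for Malat1, -1.88 to -0.51 for Kcnq1ot1, 0.68 to 1.13 for Snhg1 and 0.62 to 1.13 for Zfas1. Limma left out Kcnq1ot1, whose mean FPKM was under its filter.

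Replicate numbers showed no pairing of the mice in expression. Same-numbered libraries correlated at -0.03, -0.02 and -0.02 in their deviations from the group means, and differently numbered ones at -0.007 to 0.029. Whether mice were handled in matched sets cannot be told from these values. The replicate block left 1518 genes higher and 2000 lower, and 3 DEGs among the 9 RNAs.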
